A study of Rattus norvegicus with 20 samples.

Results

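The interval studied here is the stretch of rat chromosome 2 from 25000001 to 55000000, 30.0 megabases in build rn4, in which input DNA signal was lower in several mammary carcinomas. Its members are all probes of the array, controls left out, whose coordinate starts in it: 784 of 93024 probes. Of these, 753 had input signal well above background on at least 10 arrays and were kept, and 720 of them formed 127 CpG islands, out of 13556 on the array. An island here is a run of at least 3 kept probes starting at most 500 bases apart. The interval was chosen from the input signal of these same arrays, so every input value below is a description and carries no test.

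The series compared 4 normal mammary glands with 16 mammary carcinomas, all from female rats of an F1 cross between the Sprague-Dawley and Copenhagen strains. The protocol lists untreated rats and rats exposed at 7 weeks to 4 Gy of 137Cs gamma rays, at a rate of 0.5 Gy per minute. The carcinomas are called radiation-induced in the title of the series, and the labels do not say whether the normal glands were irradiated. Each tissue had 1 two-colour array, with Cy3 on its input DNA and Cy5 on the fraction captured through a methyl-CpG-binding domain. Samples are numbered with no animal named, so a p-value here measures the spread between these samples. Carcinomas 7 and 8 carry a sample code in the description that differs from the code of the deposited array, and each array kept the sample number of its deposit.

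Input DNA is not enriched, so its signal at a probe follows the number of copies of that sequence in the tissue, and a deletion lowers it over neighbouring probes. The Copenhagen strain resists mammary carcinogenesis, and its Mcs1 resistance locus was mapped to the proximal part of chromosome 2. A part of that locus, Mcs1b, corresponds to a human breast cancer risk locus at MAP3K1 and MIER3. The position of Mcs1 in build rn4 was not checked here, and the array does not tell which parental copy a signal comes from. CpG islands are short stretches rich in CpG, often at promoters, that are mostly unmethylated in normal tissue and can gain methylation in tumours. Islands are named by coordinates only, because no genome or gene annotation of build rn4 was used here, and no island sequence is shown.

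Median raw Cy3 signal ran from 73 to 136 units over the 20 arrays and median raw Cy5 signal from 62 to 128. In 10 carcinomas the median raw Cy3 signal of the kept probes was below 105, that of the dimmest normal gland, and carcinomas 5 and 15 were among them, at 86.5 and 88. Carcinomas 7 and 9 were not, at 116 and 129.5. The interval's probes had input well above background on 88.0% to 97.2% of spots per array. The number of arrays, above all the 4 normal glands, limits the precision of each comparison.

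The input signal of the interval was lower in some carcinomas and level with the normal glands in others. The mean log2 input shift over the kept probes, each array centred on its autosomal median and set against the normal glands, was 0.03, -0.01, -0.03 and 0.00 in the 4 normal glands. In the carcinomas it ran from -0.695 to 0.05 with a median of -0.09 and a mean of -0.15 ± 0.20 (SD, n = 16). Carcinoma 15 was lowest, followed by carcinoma 5 at -0.42, carcinoma 7 at -0.36, carcinoma 4 at -0.24, carcinoma 1 at -0.20 and carcinoma 9 at -0.19. The order changed when the rest of chromosome 2 was subtracted on each array. Then carcinoma 15 stood at -0.50, carcinoma 7 at -0.36, carcinoma 5 at -0.22 and carcinoma 9 at -0.18, and the other 12 carcinomas lay between 0.00 and 0.06, close to the normal glands at -0.03 to 0.03.

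Of the 30 bins of 1 megabase in the interval, 27 held at least 5 probes. In carcinoma 7, 25 of these 27 bins were at or below -0.25, against 1.7% of its 1885 autosomal bins. In carcinoma 9 it was 16 of 27 against 2.65%. Carcinoma 15 had all 27 bins at or below -0.25 and carcinoma 5 had 21, but low bins were common elsewhere on these arrays, at 27.3% and 31.6%. Carcinoma 7 had 25 of its 32 low autosomal bins in the interval and carcinoma 9 had 16 of 50. The other carcinomas with low bins there, 13 in carcinoma 4, 7 in carcinoma 1, 5 in carcinoma 2 and 2 in carcinoma 6, had 48.1%, 40.9%, 32.3% and 18.1% of all autosomal bins low. No bin of the interval was low in a normal gland. The bin from 43000001 was low in 8 carcinomas, more than any other bin, and the bins from 26000001 and 44000001 in 7 each. These counts included carcinomas with many low bins elsewhere. With the dependence of input on signal level removed, the same bins were low in 4, 5 and 4 carcinomas. The bin from 46000001 was then also low in 5.

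**Figure D1:**
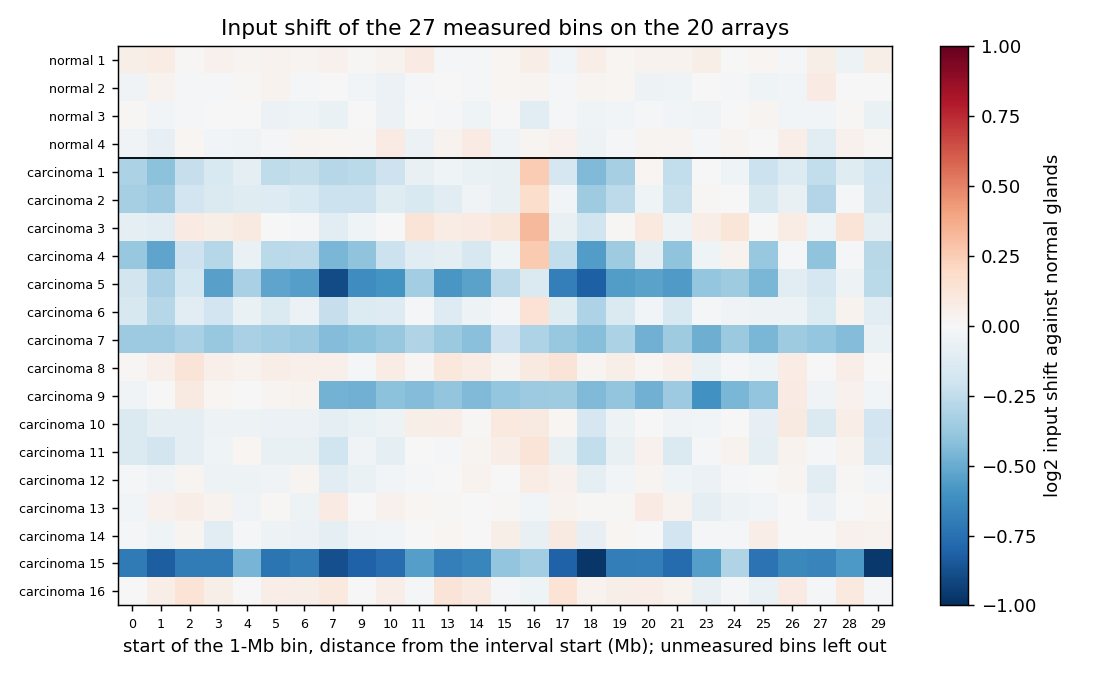
Colour shows the log2 input shift of each of the 27 measured 1-megabase bins (columns, labelled by distance from the interval's start) on the 4 normal glands and 16 carcinomas (rows). Carcinoma 15 is blue in every bin, carcinoma 7 in 25, and carcinoma 9 in 16 bins that leave out both ends of the interval.

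A run was defined as at least 3 measured bins in a row at or below -0.25. Carcinomas 4, 5, 7, 9 and 15 had a run that touched the interval, and no normal gland had any. The runs of carcinoma 4, at bins from 24000001 to 27000000 and from 30000001 to 35000000, were lost when its dependence on signal level was removed or the rest of chromosome 2 was subtracted. The runs of carcinomas 5, 7, 9 and 15 were present under both. The lowest bin was the one from 32000001 in carcinoma 5 (-0.89, 12 probes), the one from 48000001 in carcinomas 7 (-0.49, 23 probes) and 9 (-0.61), and the one from 43000001 in carcinomas 4 (-0.56, 32 probes) and 15 (-0.98).

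Boundaries were set on each array at the stretch of chromosome 2 probes that differed most from the rest of the chromosome. In carcinoma 7 the stretch ran from 24937737 to 53935379, 29.0 megabases and 737 probes, with a mean shift of -0.37 ± 0.22 (SD over probes), which is 77.4% of the normal-gland signal. The rest of the chromosome averaged -0.01. At its left edge the probe run from 24904454 had a mean of -0.01 and the next, from 24937737, of -0.25. Further in, the run from 25013694 was at -0.32 but the run from 25174575 at 0.01. At the right edge the run from 53934130 stood at -0.39 and the run from 54301893 at -0.08.

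In carcinoma 9 the stretch ran from 31890571 to 50865697, 18.98 megabases and 342 probes, at -0.43 ± 0.22, or 74.0% of normal. The rest of the chromosome averaged -0.00265. The run just before, from 31637209, was at 0.02, and the run from 32613774 was at -0.60. In carcinoma 5 the stretch ran from 28853606 to 50865697, 22.0 megabases and 512 probes, at -0.54 ± 0.67, or 68.8% of normal, against -0.20 on the rest of the chromosome. The spread between probes was wider than in carcinoma 9, and the left edge was not sharp: the run just before, from 28799783, was at -0.36.

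The fitted right edge of carcinomas 5 and 9 was the same probe. The last run before it, from 50516875 to 50517655, was at -0.68 in carcinoma 5 and -0.59 in carcinoma 9. The next run, the island from 50865653 to 50866034, contains the edge and had a mean of 0.06 in both. In carcinoma 9 the runs from 51609128 and 51610329 past the edge were at 0.06 and 0.10. In carcinoma 5 they were at -0.52 and -0.38, and the run from 49526043 before the edge was at -0.00128, so the edge was clean in carcinoma 9 only. The stretch of carcinoma 15 was far longer. It began at the first probe used, at 245306, and ended at 62702548, 62.5 megabases with 1272 probes at -0.69 ± 0.63, or 61.8% of normal, against -0.13 on the rest of the chromosome. The next probe after its right edge, at 62702951, belonged to the same run, which ended at 62703157. The next run began only at 76877741. All 4 stretches had 31890571 to 50865697 in common, the full extent of that of carcinoma 9.

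**Figure D2:**
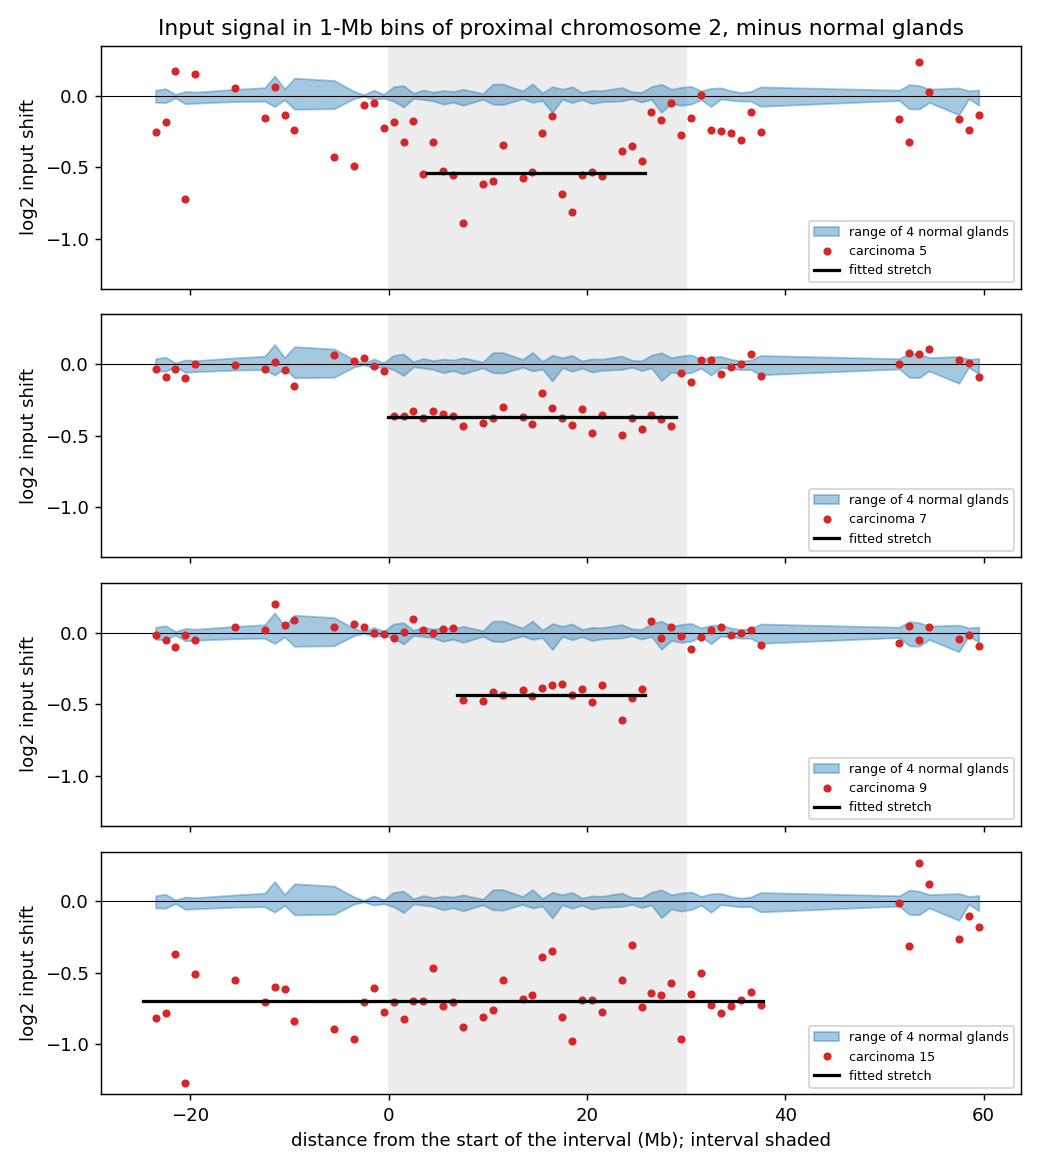
Points show the log2 input shift of 1-megabase bins against distance from the start of the interval (shaded) for carcinomas 5, 7, 9 and 15, with the range of the 4 normal glands as a band and the fitted stretch as a line. The stretches of carcinomas 5 and 9 end at the same probe, that of carcinoma 7 spans nearly the whole interval, and that of carcinoma 15 extends past both ends.

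Over that shared stretch the shift minus the rest of chromosome 2 was -0.36 in carcinoma 5, -0.38 in carcinoma 7, -0.43 in carcinoma 9 and -0.52 in carcinoma 15. The other 12 carcinomas lay between -0.000747 and 0.08. In tissue DNA, a loss in every cell of part of the copies and a deeper loss in part of the cells cannot be told apart. At the probe level, 86.7% of the interval's probes in carcinoma 7 lay below every normal gland, against 24.7% of other autosomal probes. The shares were 89.6% against 40.8% in carcinoma 15, 61.6% against 41.0% in carcinoma 5 and 53.9% against 26.7% in carcinoma 9. The other array of the same slide had no such stretch for any of them: carcinoma 4 beside carcinoma 5, carcinoma 13 beside carcinoma 7, carcinoma 8 beside carcinoma 9 and carcinoma 11 beside carcinoma 15.

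The Cy5 channel, which the choice of the interval did not use, was also lower in these carcinomas. Its mean log2 shift over the interval was -0.67 in carcinoma 15, -0.42 in carcinoma 5, -0.40 in carcinoma 7 and -0.23 in carcinoma 9, while the normal glands were at 0.25, -0.05, -0.05 and -0.15. Across the 16 carcinomas the Cy5 shift rose with the input shift, with Pearson's r = 0.95 and Spearman's rho = 0.87. The input shift chose the interval, so these are a description with no p. Without the 2 carcinomas farthest from the median input shift r was 0.85 and rho 0.80. On scan day 2 alone r was 0.99 and rho 1 (n = 6), and on scan day 3 alone r was 0.90 and rho 0.67 (n = 8). Both channels come from the same spots.

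With the rest of chromosome 2 subtracted, Cy5 stood at -0.38 in carcinoma 15, -0.25 in carcinoma 7, -0.21 in carcinoma 5 and -0.11 in carcinoma 9. The next lowest carcinoma was carcinoma 16 at -0.05, and the normal glands ran from -0.02 to 0.03. On this scale the carcinomas fall into separate clusters and no r is given. Cy5 was also taken over the 296 probes of islands with little methylation in normal glands, within the shared stretch. It was at -0.24, -0.22, -0.26 and -0.34 in carcinomas 5, 7, 9 and 15, with normal glands at -0.03 to 0.04. The input values of that stretch above are over all its 342 probes. Over such islands of the whole interval, Cy5 was lower by less than the input in these carcinomas. Input was at -0.22, -0.35, -0.18 and -0.50, and Cy5 at -0.18, -0.20, -0.09 and -0.33.

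Bin by bin, Cy5 did not trace the input stretches closely. Runs of low Cy5 bins that touched the interval were found in carcinomas 5, 7, 9 and 15, but also in carcinomas 4, 8, 11, 12, 14 and 16, and in no normal gland. The share of low Cy5 bins over all autosomes was not counted. In carcinoma 9 the only such run was from 39000001 to 44000000, at -0.62, and in carcinoma 7 there was the same run, at -0.61, and one from 28000001 to 32000000, at -0.63. The Cy5 stretch that differed most from the rest of chromosome 2 was the 16 probes from 30426222 to 30427346 in carcinomas 5 and 7, at -2.63 and -3.22. These 16 probes are a single island, methylated in normal glands, and its Cy5 was lower over the whole carcinoma group, by a mean difference of -2.21. In carcinoma 9 the stretch that differed most lay outside the interval, from 203974650 to 203982126 (19 probes, -2.68). Only in carcinoma 15 did it overlap the input stretch broadly, from 4469959 to 48061270 (879 probes, -0.72).

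**Figure D3:**
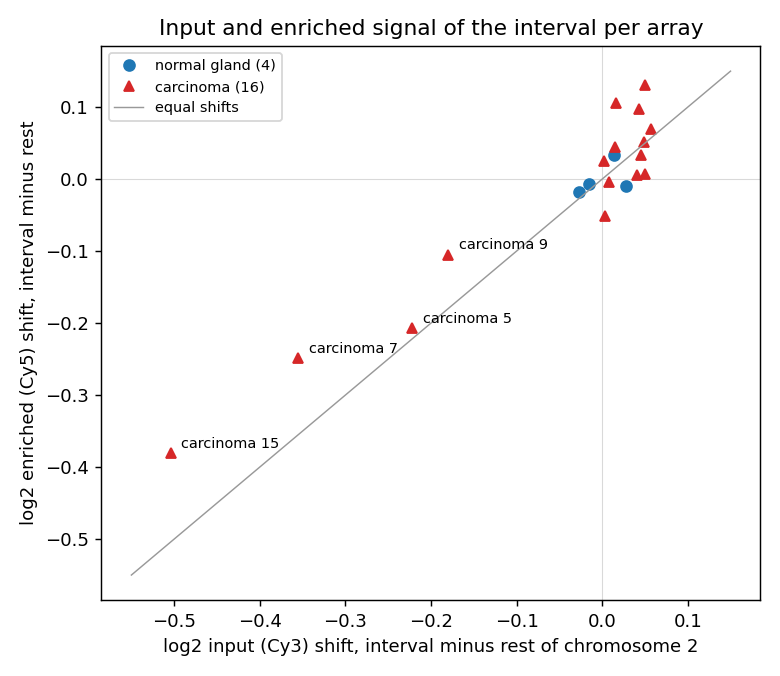
Each point is an array, with the log2 input shift of the interval minus the rest of chromosome 2 on the horizontal axis and the same for Cy5 on the vertical axis. Carcinomas 5, 7, 9 and 15 lie low in both channels, and the other carcinomas and the 4 normal glands lie near 0.

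The next comparison asked how the methyl-CpG enrichment of the 127 islands differed between carcinoma and normal gland. It used the log2 of Cy5 over Cy3, and a lower copy number acts on both channels. Cy3 also chose the interval, so a low input raises this ratio wherever Cy5 is lower by less. The tests of the ratio and of the linear position below are therefore not independent of that choice. With limma and Benjamini-Hochberg adjustment over all 13556 islands, 17 of the 127 rose and 13 fell in carcinomas (adjusted p under 0.05), against 11.6% and 23.7% of all islands. To set each island against the range of its own array, it was also given a linear position, with 0 at the most common ratio and 1 at the mode of the highest 15% of islands on that array. On it 26 were higher and 3 lower, against 17.1% and 4.44%. Loess normalization within arrays gave 19 and 3, against 10.8% and 7.26% of all islands. Normexp background correction gave 7 and 11, against 3.86% and 21.1%, and Cy5 alone 5 and 13, against 4.77% and 21.9%. The balance of higher to lower calls thus depends on the scale. Without normal gland 1 the 17 higher calls became 9, without normal gland 3 they became 11, and without the 10 carcinomas of dim input 8. They were 8 within scan day 2 and 2 within scan day 3, against 4.49% and 2.15% of all islands, and 10 islands were lower on each day, against 16.7% and 17.7%. The 26 higher calls in linear position became 15, 16 and 17 without normal glands 1, 3 and 4, and they were 9 and 13 within scan days 2 and 3, against 2.80% and 3.29% of all islands. Of the calls, 7 were higher and 2 were lower on both the log2 ratio and the linear position, against 3.67% and 2.11% of all islands.

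The interval holds mostly islands that are unmethylated in normal glands. In 114 of the 127, or 89.8%, every normal gland was below 0.2 in linear position, against 81.3% of all islands, and in 7, or 5.5%, every normal gland was above 0.5, against 10.8%. The median difference was 0.14 over the 127 islands and 0.02 over all islands on the log2 scale, and 0.02 against 0.01 in linear position. The mean log2 ratio of the 127 islands was 0.23 ± 0.08 (SD, n = 4) in the normal group and 0.27 ± 0.07 (SD, n = 16) in the carcinomas. The difference of 0.04 did not pass (exact permutation p = 0.287, two-sided). This difference was 0.09 in linear position, from 0.08 ± 0.01 in the normal group to 0.17 ± 0.04 (exact permutation p = 0.000206, the smallest the design allows), and all 16 carcinomas lay above every normal gland. The other autosomal islands also rose in linear position, from 0.13 to 0.20, with 15 of 16 carcinomas above every normal gland. With these islands subtracted, the linear difference of the interval was 0.02 (exact permutation p = 0.001445). It was 0.02 on scan day 2 (exact permutation p = 0.0714) and 0.03 on scan day 3 (exact permutation p = 0.0222).

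The mean log2 ratio of the interval was also set against that of the other autosomal islands of the same array. The 4 normal glands stood at -0.300, -0.19, -0.20 and -0.305, and the carcinomas ran from -0.155 to 0.05 with a median of -0.06. The groups did not overlap, with a difference of 0.20 (exact permutation p = 0.000206, the smallest the design allows). On scan day 2 alone it was 0.15 (exact permutation p = 0.0357), and on scan day 3 alone 0.26 (exact permutation p = 0.0222), each the smallest p that day allows. Normal glands 2 and 3, of scan day 2, shared a slide, as did normal glands 1 and 4, of scan day 3. These tests took arrays on a shared slide as independent, so their p-values may be too small. Input chose the interval and is the denominator of this ratio, so these tests are not independent of that choice. In Cy5 alone, over probes and set against the rest of chromosome 2, the difference was -0.03. On that measure 6 carcinomas lay above every normal gland and 5 below. The other islands fell in mean, from 0.48 to 0.32, while the interval's mean did not fall. Their make-up differs: islands methylated in every normal gland are 5.5% of the interval's islands and 10.8% of all islands. All 1464 of these on the array fell, with a median of -1.95. Among islands low in every normal gland, the difference between interval and other islands was 0.07 (exact permutation p = 0.0157), with 0.06 on scan day 2 (exact permutation p = 0.179) and 0.11 on scan day 3 (exact permutation p = 0.0222, the smallest that day allows). After loess normalization over all islands it was 0.04 (exact permutation p = 0.506). Carcinomas 15, 7 and 9 had the 3 highest values, at 0.05, 0.04 and 0.02, and carcinoma 5 was at -0.07.

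**Figure D4:**
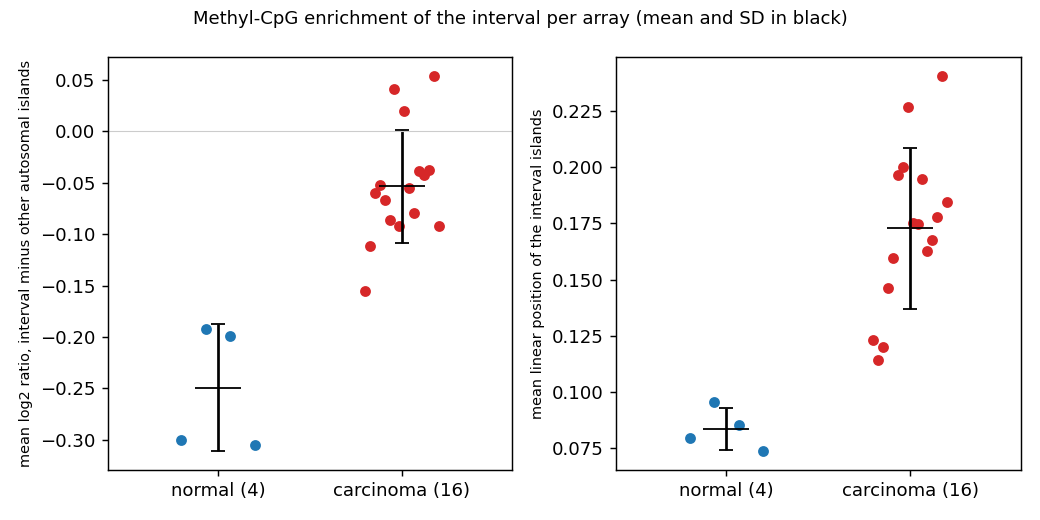
Points are arrays, with mean and SD in black: on the left the mean log2 ratio of the 127 islands minus that of the other autosomal islands, on the right the mean linear position of the 127 islands. In both plots each of the 16 carcinomas lies above each of the 4 normal glands. The right plot does not subtract the other autosomal islands, which also rose in linear position. Input signal, which chose the interval, enters both measures.

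The 7 islands that were methylated in every normal gland were lower in log2 ratio in carcinomas, as were all 1464 such islands of the array. The largest fall was at 25887886 to 25888354 (9 probes). It stood at 6.43, 4.35, 5.13 and 4.76 in the 4 normal glands and between 2.13 and 3.90 in the carcinomas, with a median of 3.04. All 16 carcinomas lay below every normal gland, as on 15.6% of all islands, with a mean difference of -2.23 (SE 0.32, limma adjusted p = 1.95e-05), and the fall was also present in linear position, from 1.43 to 1.19 (limma adjusted p = 0.000354). The island from 30426222 to 30427346, with 16 probes the longest of those named, fell by 2.05 on the log2 scale (limma adjusted p = 1.97e-05) and by 0.07 in linear position, from 1.16 to 1.08 (limma adjusted p = 0.0357).

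The other falls named were at 43359204 (-2.05), 25701841 (-2.01), 25988539 (-1.92) and 31890241 (-1.87), each with an adjusted p of at most 2.32e-05 by limma. These 6 differences were -1.89 to -1.49 after normexp, but after loess all 6 turned positive, between 0.03 and 0.41 with adjusted p of at least 0.14. In linear position the island at 43359204 differed by -0.07 and the one at 25701841 by -0.04, and those at 25988539 and 31890241 by 0.02 and 0.03, none with a call. All 7 methylated islands were above 0.5 in linear position in all 16 carcinomas.

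Among the 6 largest rises, the island from 48522446 to 48522828 (5 probes) was at -0.35, -0.12, -0.14 and -0.57 in the normal glands and between -0.23 and 2.30 in the carcinomas, with a median of 1.29. It rose by 1.49 (SE 0.35, limma adjusted p = 0.00187), and 15 of 16 carcinomas lay above every normal gland. The share of all islands with 15 of 16 was not counted, and 1.76% met the stricter rule of every carcinoma above every normal gland. In linear position the island at 48522446 moved from 0.00 to 0.32 (limma adjusted p = 0.0263). The island from 52120961 to 52121317 (5 probes) was at 1.43, 0.86, 0.86 and 0.25 in normal glands and between 0.89 and 3.12 in carcinomas. It rose by 1.22 (SE 0.36, limma adjusted p = 0.0112), with 12 of 16 carcinomas above every normal gland, and from 0.04 to 0.64 in linear position (limma adjusted p = 0.00356). The other 4 rises were at 44379810 (0.93), 54433049 (0.89), 29099303 (0.85) and 38862982 (0.82), with adjusted p of 0.0214 to 0.0364 by limma. Of the 6, those at 48522446 and 52120961 also passed in Cy5 alone, as did that at 44379810, which did not pass in linear position or after loess.

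Of the 114 islands low in every normal gland, 24 exceeded 0.5 in linear position in at least 1 carcinoma, 9 of them in at least 8 carcinomas, against 2.29% of the 11026 such islands on the whole array, and 90 in none, against 84.2%. Since the normal glands were below 0.2 by choice of the islands, these counts are a description. Per carcinoma the number ran from 0 in carcinoma 2 to 19 in carcinoma 15, with 16 in carcinoma 8 and 15 in carcinoma 11. The shares of all low islands of the array were 0.118% in carcinoma 2 and 10.9%, 9.68% and 7.94% in carcinomas 15, 8 and 11. Over the interval the share was 7.73% ± 4.85 (SD, n = 16) of the low islands and over all autosomal low islands it was 3.84% ± 3.32. The interval's share was above the autosomal share in 14 of 16 carcinomas, and below it in carcinomas 1 and 2. Carcinomas 5, 7, 9 and 15, with the low stretch, had 6, 9, 6 and 19, against 3.37%, 2.81%, 1.56% and 10.9% of all low islands.

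The 9 islands were at 25176287, 25183597, 25186269, 28945141, 29168128, 38862982, 48060630, 52120961 and 54433049. All 9 were higher in linear position by limma. Linear position also chose these islands, so their calls and p-values on it are a description and no separate support. In log2 ratio, 3 of the 9 were higher. The island from 54433049 to 54433498 was over 0.5 in 14 carcinomas, with a mean of 0.08 ± 0.05 in normal glands and 0.70 ± 0.15 in carcinomas (limma adjusted p = 2.38e-05). The island from 25186269 to 25186903 was over 0.5 in 13, with a mean of 0.11 ± 0.05 and 0.70 ± 0.21 (limma adjusted p = 0.000768), but its log2 ratio did not pass, at a difference of 0.51 (limma adjusted p = 0.233). It lies with 4 other islands that were higher in linear position, from 25174575 to 25186903. Further neighbours that were higher together, chosen after their values were seen, were at 28945141, 28954605, 29099303, 29168128 and 29206239, and at 48053592, 48060630 and 48522446. The island at 29020749, between those of the first set, was already at 0.62 ± 0.11 in linear position in normal glands and at 0.90 ± 0.08 in carcinomas, while its log2 ratio differed by -1.41 (limma adjusted p = 0.000342).

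**Figure D5:**
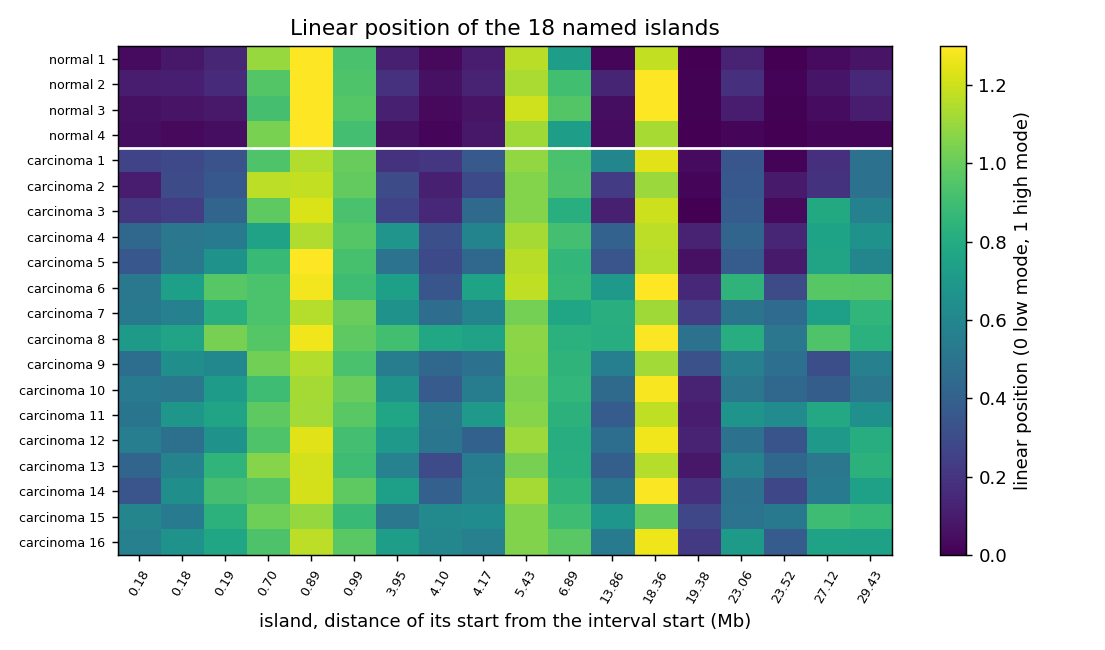
Colour shows the linear position of the 18 named islands (columns, by distance of the start from the interval's start) in each array (rows, normal glands above the white line). The islands named for gains are dark in the 4 normal glands and lighter in most carcinomas, and the methylated islands are bright in every array.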

How the data were processed

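Agilent Feature Extraction 10.7.3.1 was used by the authors, per the file headers: the deposited Cy5 and Cy3 intensities had the background subtracted and were scaled in each channel by a linear dye factor. Per the file headers the deposited scanner ratio is in log10, Cy5 over Cy3, and the authors' value table is the same ratio in log2 (largest difference 7.94e-07 over 91897 of 93024 probes). Coordinates are those of build rn4, per the file headers. The scanner's flags are a deposited 0 or 1 mark, and 187 flagged values were left out.

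Here, log2 values of each array were centred on the autosomal median (input, Cy5) or the median (ratio), and islands were averaged. Input and Cy5 shifts of carcinomas are relative to the mean of the normal glands, and those of a normal gland to its remaining 3. Islands were tested in limma (version 3.58.1, R 4.3.3), adjusted by Benjamini-Hochberg over all islands, and single values with two-sided exact permutation tests over 4845 splits. Scan day 2 held 2 normal glands and 6 carcinomas, day 3 held 2 and 8, and day 1 held 2 carcinomas only. None of the 10 slides held both groups. Normal glands 1 and 4 shared a slide, as did normal glands 2 and 3, and the permutation tests took all arrays as independent. The region test and the boundary search were tested on simulated data. Other steps used Python 3.11.15 with scipy 1.17.1, numpy 2.4.6 and pandas 2.3.3.

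The interval, the lists and the rules were chosen with earlier results of these data known. Named were the 6 largest rises and falls past the threshold, the 3 highest islands in normal glands, low islands over 0.5 in at least 8 carcinomas, the lowest bin of each carcinoma with a run, and the bins low in the most carcinomas.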

Additional observations from a re-analysis of the deposited data

Results flagged for a closer look

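In 2 of 27 sets of the 4 normal glands searched, a gland stood apart from the other three; chance alone sets about 5% of such sets apart. The share of the interval's islands above 0.5 in linear position was 5.51% in normal gland 1 and 7.09% in each of the other normal glands. The gap came from the islands at 26857342 and 43074450, just under the cut in normal gland 1, at 0.474 and 0.491. The other glands were tied, so a gap of any size would set normal gland 1 apart by this rule. The island at 29168128 had a log2 ratio of 2.69 in normal gland 1 and 1.37, 1.25 and 1.25 in the others.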

How the results depend on the processing

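Alternatives changed the scale, normalization, background, probe filter, island size, threshold, blocks and arrays used. Those that removed the dependence of input on signal level, subtracted the rest of chromosome 2, fitted boundaries, left out the dim carcinomas or carcinomas 7 and 8, used only low islands in the mean ratio, or repeated fits on linear position were chosen after seeing the data.

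The 17 higher calls in log2 ratio became 26 in linear position, 7 after normexp, 5 in Cy5 alone, 8 and 2 within scan days 2 and 3, 6 at an adjusted p under 0.01, and 8 without the dim carcinomas. Leaving out an array gave 9 to 24. The 13 lower calls became 3 after loess and 3 in linear position, and 11 to 16 with an array left out. The 26 higher and 3 lower calls in linear position became 9 and 0 within scan day 2, 13 and 0 within day 3, and 15 to 29 and 1 to 4 with an array left out. For these counts of 0 the cause was not tested beyond the smaller number of arrays.

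Same-numbered arrays had correlations of their deviations of 0.36, -0.16, 0.05 and -0.15, and arrays of unlike number had -0.36 to 0.43. With so few pairs, these values cannot decide whether replicate numbers pair the samples, and the main tests used no pairing. Over arrays 1 to 4 of each group, the replicate block gave 8 higher calls in log2 ratio against 13 without it. In linear position it gave 0 higher and 0 lower against 12 higher without it.

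The mean log2 ratio difference of the interval reversed to -0.0433 after normexp (exact permutation p = 0.396) and to -0.00579 over arrays 1 to 4 with the replicate block (exact permutation p = 0.875) and without it (exact permutation p = 0.914). It ran from 0.01 to 0.07 with an array left out, and passed in linear position, at 0.0892. Set against other islands it kept its call except after loess (0.0410, exact permutation p = 0.506) and ran from 0.18 to 0.21 with an array left out. The mean input difference of -0.15 ran from -0.17 to -0.12 with an array left out. Runs were found in 4 to 7 carcinomas over all settings, with carcinomas 5, 7, 9 and 15 in each and no normal gland in any.

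Named islands reversed after loess: 25701841 (0.21), 25887886 (0.23), 25988539 (0.0343), 30426222 (0.0722), 31890241 (0.0323) and 43359204 (0.41). In linear position 25988539 (0.0159) and 31890241 (0.0342) reversed. The island at 28945141 reversed to -0.14 with and without the replicate block and to -0.11 without normal gland 4 (-0.11 to 0.49 with an array left out), that at 48060630 to -0.18 without normal gland 4 (-0.18 to 0.68), and that at 29168128 to -0.0301 within scan day 3. The cause was not tested.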
